A study of Drosophila melanogaster with 3 samples.

Results

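Hr3, Hr4, ftz-f1, Hr38, Hr39, Hr78, Eip93F, Kr-h1, crol and tai are 10 regulators of the hormone cascade that runs through the prepupa, out of 13945 protein-coding genes annotated on the 6 main chromosome arms. They were taken by name, for their known place in that cascade, and every pdm3-GFP summit inside 1 of these genes or within 5 kb of it was collected. The data are chromatin immunoprecipitations from whole white prepupae of Drosophila melanogaster, males and females together, of a transgenic line whose pdm3 carries GFP at its C-terminus, precipitated with an antibody against GFP. The 3 biological replicates form 1 group, so there is no other genotype, stage or treatment to set against them, and the spread between replicates is the only error that can be given. The authors deposited 30000 candidate peaks for each replicate, 30000 for the replicates pooled, and 8164 thresholded for reproducibility, called optimal here. They name the pooled 30000 as peaks and background together. A candidate below the optimal list may therefore be background and is not taken here as binding. Of the 8164 optimal summits, 61 lay at 9 of the 10 genes, and Kr-h1 had none. All cell types of the animal contribute to 1 chromatin pool, so a summit may come from a part of the tissues, and the lists hold no expression values.

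Steroid pulses of ecdysone drive the fly through metamorphosis. The pulse at the end of larval life switches on early genes such as br, Eip74EF and Eip75B through the ecdysone receptor and its partner usp. A second tier of nuclear receptors, among them Hr3 and Hr4, then shuts the early genes down and helps to switch on ftz-f1, whose product makes mid-prepupal tissues able to respond to the next pulse. Juvenile hormone acts in the opposite sense in the larva through the receptors Met and gce and their target Kr-h1, and Eip93F marks later steps such as the death of larval tissues. The factor that was precipitated, pdm3, is a POU-homeodomain protein best known from neurons, where POU factors bind an octamer.

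The stretches below are shown because they lie under the highest optimal summit of the genes the results turn on, and, for Hr78, under its single summit, at the promoter. Each reaches 100 bases to either side of its summit and is read 5′ to 3′ from the plus strand of the RefSeq dm6 assembly, with positions counted from 1. Capitals mark any of the 9 short words searched, on either strand, which are spelled out further on. A stretch with no capitals holds none of them. The summits lie in introns except at Hr78.
Hr4, chrX:1951823-1952023: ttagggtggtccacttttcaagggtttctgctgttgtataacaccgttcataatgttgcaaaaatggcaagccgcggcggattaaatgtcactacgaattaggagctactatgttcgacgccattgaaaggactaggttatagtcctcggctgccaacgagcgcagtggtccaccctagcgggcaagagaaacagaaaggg
tai, chr2L:9211296-9211496: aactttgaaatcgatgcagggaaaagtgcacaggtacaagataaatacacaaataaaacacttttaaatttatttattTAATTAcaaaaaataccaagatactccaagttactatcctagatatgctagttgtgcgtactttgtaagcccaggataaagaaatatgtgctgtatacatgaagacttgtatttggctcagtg
ftz-f1, chr3L:18756521-18756721: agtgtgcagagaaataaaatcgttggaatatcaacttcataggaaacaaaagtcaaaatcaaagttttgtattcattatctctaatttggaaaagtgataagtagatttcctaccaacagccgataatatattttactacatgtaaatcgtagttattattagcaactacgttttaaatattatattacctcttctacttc
Eip93F, chr3R:21992991-21993191: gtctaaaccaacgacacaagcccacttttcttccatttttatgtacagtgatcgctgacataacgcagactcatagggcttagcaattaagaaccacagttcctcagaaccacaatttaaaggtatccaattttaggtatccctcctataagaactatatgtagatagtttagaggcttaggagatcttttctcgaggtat
crol, chr2L:11806740-11806940: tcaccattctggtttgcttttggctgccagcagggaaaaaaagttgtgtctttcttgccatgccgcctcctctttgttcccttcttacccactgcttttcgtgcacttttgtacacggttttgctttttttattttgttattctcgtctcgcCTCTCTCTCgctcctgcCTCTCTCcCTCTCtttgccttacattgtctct
Hr78, chr3L:21497064-21497264: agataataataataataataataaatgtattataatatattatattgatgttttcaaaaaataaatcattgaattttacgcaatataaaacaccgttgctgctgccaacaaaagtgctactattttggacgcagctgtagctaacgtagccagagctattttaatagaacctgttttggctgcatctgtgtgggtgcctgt

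Most summits at these genes were intronic, at a share near that of other long genes. Of the 61 optimal summits 44 (72.1%) lay in introns, 11 (18.0%) outside the gene within 5 kb, 4 (6.56%) within 500 bp of a start site of the gene itself, 2 in UTR exons and 0 in coding exons. Over all protein-coding genes, counting a summit once for each gene it falls to, 26.5% of 15781 were in introns, 53.8% in flanks and 18.6% at promoters. For the 7 regulators of at least 20 kb the intron share was 75.4% of 57, against 70.8% of 4119 for all protein-coding genes of that length, and the promoter share 3.51%, against 11.6%. By gene, 9 of 10 had a summit of any kind, against 48.2% of all protein-coding genes. Within 500 bp of an own start site 4 of 10 had one, against 17.6%, and in an intron farther from a start site 8 of 10, against 10%. Most of these genes are long, and 9 of them reach 10 kb or more. Among those 9, 8 had a summit of any kind, against 75.4% of the 1977 protein-coding genes of that length. A promoter summit was found at 3 of the 9, against 33.9%, and an intron summit at 8 of the 9, against 51.8%. Of those 1977 genes 964 are shorter than 20 kb, and so are 2 of the 9 regulators. Of the 7 regulators of at least 20 kb, all 7 had a summit of any kind, against 78.9% of 1013 genes of that length, 2 had one at the promoter, against 34.3%, and all 7 had one in an intron, against 63%. The promoter counts are near the background at either length, and the background of the other 2 counts rises with length. No test was made of these counts, because the genes were chosen by name with results of these data known.

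**Figure D1:**
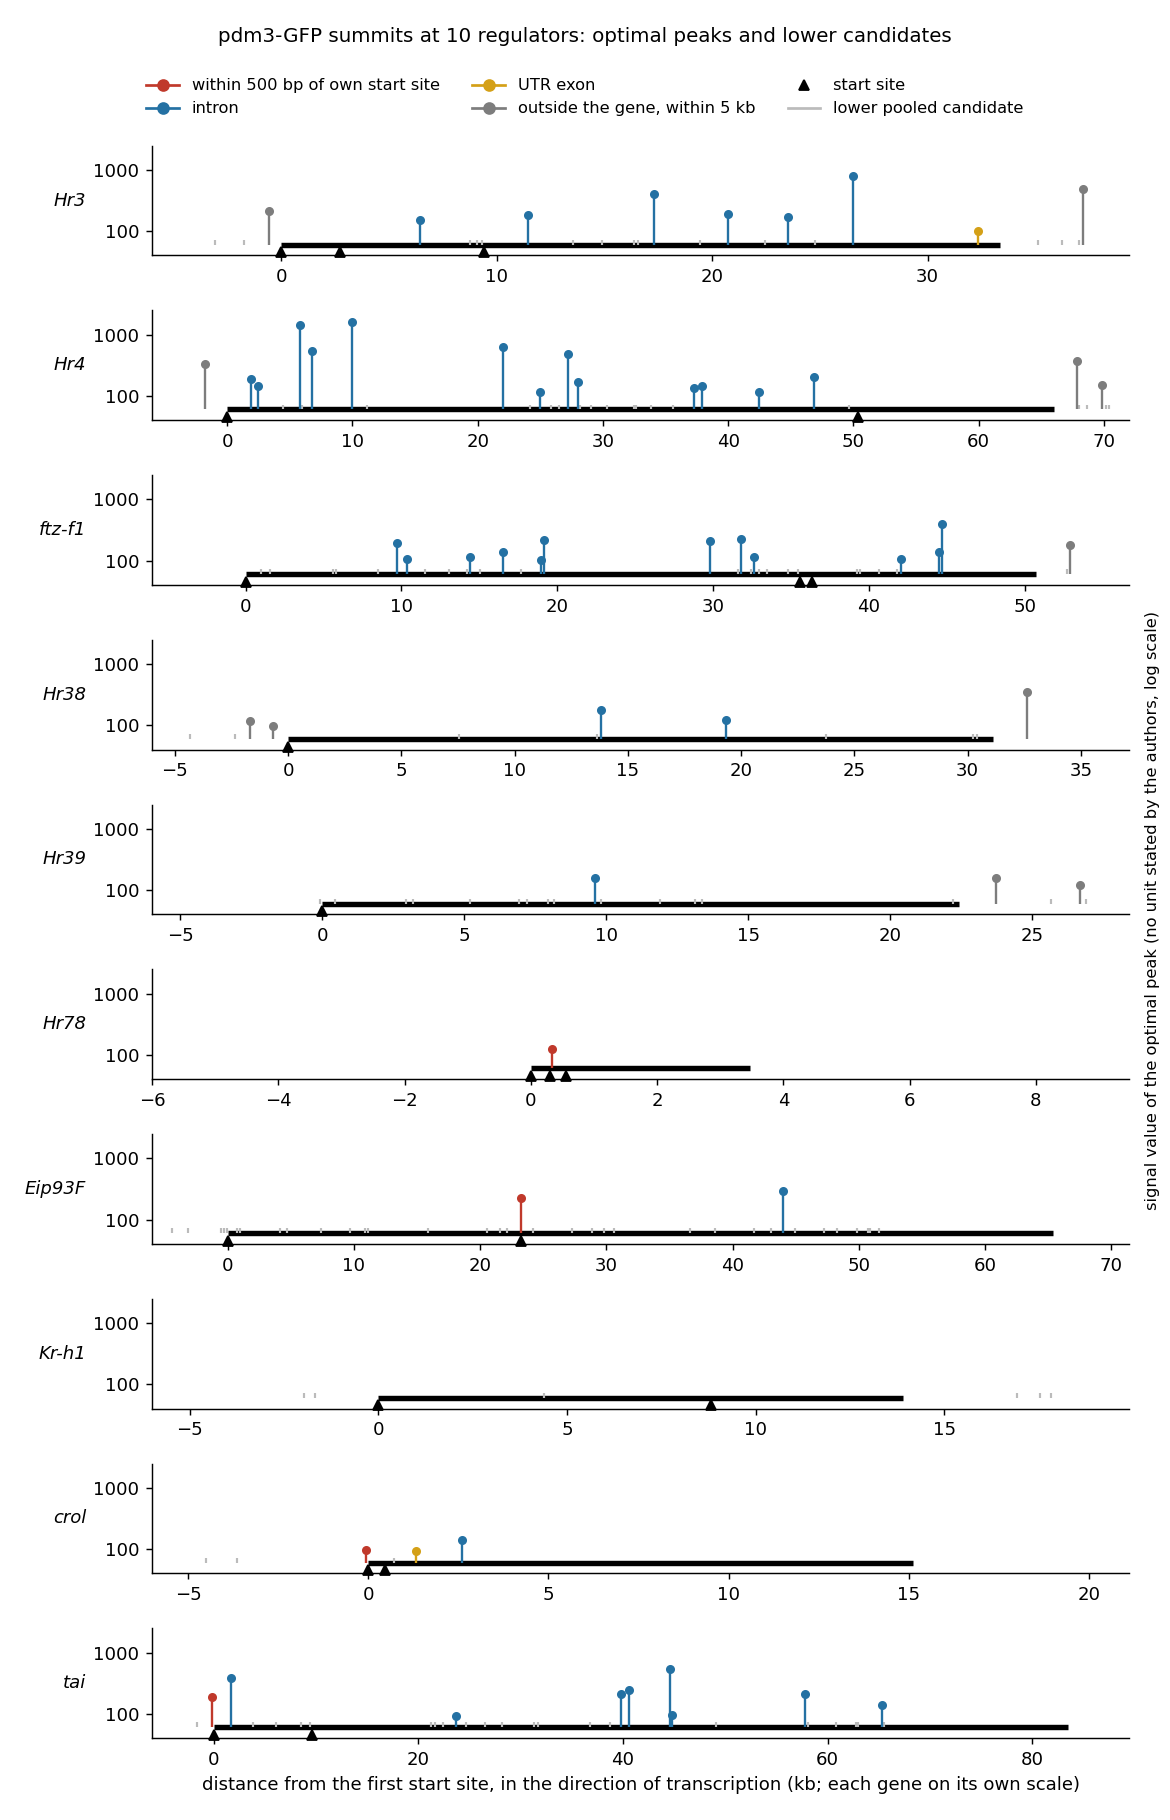
Each row is 1 gene, drawn as a black bar from its first start site (0 kb) in the direction of transcription, each on its own scale. Vertical lines are optimal summits with the authors' signal value on a log axis, coloured by location, grey ticks are candidates of the pooled list below the optimal list, and triangles are start sites. Hr4 carries the highest summits, 1588 and 1459, in its first intron, and Kr-h1 shows grey ticks alone.

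The equally long top of each replicate's own list, its 8164 highest peaks, gave similar totals of summits at the 10 genes. Replicates 1, 2 and 3 had 56, 63 and 61 summits at the 10 genes, a mean of 60 ± 3.61 (SD, n = 3). Intron summits numbered 41, 44 and 42 (42.3 ± 1.53), and promoter summits 4, 6 and 6 (5.33 ± 1.15). A summit was found at 9, 10 and 9 of the 10 genes, against 51.3%, 49.8% and 53.4% of all protein-coding genes in the same replicates. The whole candidate lists of the replicates held 205, 175 and 215 summits at these genes. The pooled candidate list held a mean of 20.1 per gene, and all 10 genes had at least 1, against 69.7% of all protein-coding genes.

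Per length of sequence, the 10 genes with their 5 kb flanks held 1.26 optimal summits per 10 kb, against 0.61 over the 6 arms, a ratio of 2.06. In the equally long top of the 3 replicates that ratio was 2.03 ± 0.123 (SD, n = 3). In the pooled list, of peaks and background together, it was 1.85, so the ratio is not particular to the optimal peaks. Among the 9 long genes the density ran from 0 at Kr-h1 to 2.14 at ftz-f1, with a median of 1.19, against a median of 0.504 for the 1977 protein-coding genes of at least 10 kb. The order was ftz-f1 at 2.14, Hr4 at 2.10, Hr3 at 2.08, Hr38 at 1.22, crol at 1.19, tai at 0.963, Hr39 at 0.925, Hr78 at 0.742, Eip93F at 0.265 and Kr-h1 at 0. The first 3 of these are nuclear receptor genes, and their order depended on the list. In the tops of the replicates the density was 2.38 ± 0.266 at Hr3, 2.10 ± 0.263 at Hr4 and 1.70 ± 0.190 at ftz-f1 (SD, n = 3). The 61 summits had signal values from 91.2 to 1588 with a median of 175, against 89.8 to 4114 with a median of 173 for all optimal peaks, and 31 of the 61 lay in the higher-signal 50% of the list. The top 10% of the list held 5 of the 61, all in introns.

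**Figure D2:**
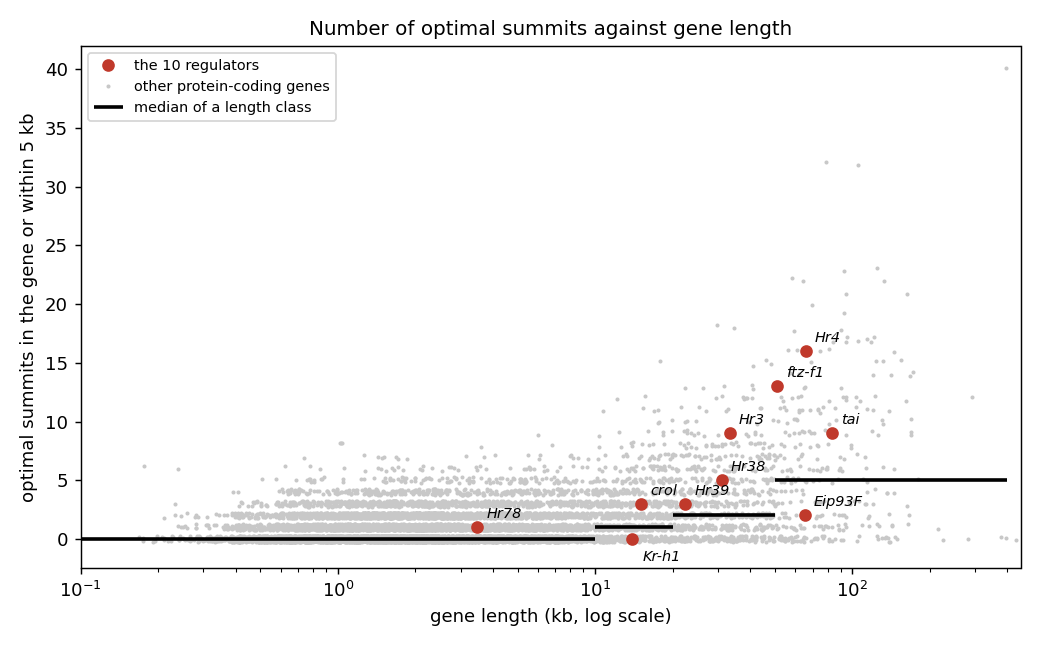
Number of optimal summits in a gene or within 5 kb of it, against gene length in kb on a log axis, for the 10 regulators (red) and the other protein-coding genes (grey, jittered upwards or downwards for display). Black lines are medians of 4 length classes, 0, 1, 2 and 5 summits, and of the regulators Eip93F and Kr-h1 lie below the median of their class.

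Hr4, an orphan nuclear receptor that represses early genes and acts on the timing of ecdysone release, had the most summits of the 10. It spans 66.0 kb at chrX:1941940-2007956 on the plus strand and held 16 optimal summits, 13 of them in introns and 3 in the flanks. The replicates' tops held 16, 14 and 18 (mean 16 ± 2, SD, n = 3). Of the 307 protein-coding genes of 50 kb or more, 8.79% had as many or more, with a class median of 5.

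The highest summit of the whole set lay 9983 bp downstream of the main start site of Hr4, in its first intron, under the first of the sequences printed. The peak, chrX:1951725-1952099, had a signal value of 1588 and rank 59 of 8164. In replicates 1, 2 and 3 it had signal values of 527, 431 and 635 on each list's own scale, and ranks of 63, 52 and 67, a mean of 60.7 ± 7.77 (SD, n = 3). A second peak in the same intron, chrX:1947561-1947953 with its summit at 5808 bp, had a signal value of 1459 and rank 78. Its ranks in the replicates were 76, 76 and 83 (78.3 ± 4.04). Both peaks were therefore among the 100 strongest of every replicate, while no other summit of the 10 genes ranked above 300 in any of them. Another summit, 943 bp beyond that one, had a signal value of 544 and ranks of 775, 927 and 858 in the replicates.

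Deeper in Hr4 lay a peak with a signal value of 618, 22004 bp from the start site, at ranks 876, 598 and 480 in the replicates, and one with 483, which replicates 2 and 3 ranked 1140 and 827. In replicate 1 that last one was overlapped by a peak at rank 1196 over less than 50% of its length. The other 8 intron summits had signal values from 114 to 202. Neither start site of Hr4 had an optimal summit within 500 bp, and the nearest to each lay 1750 bp upstream of the first and 3465 bp upstream of the second. That first flank summit, with a signal value of 332, lies within 500 bp of start sites of CG3587 and CG3857, and the 2 flank summits at the other end lie at start sites of PIG-K and east. Which gene these 3 serve cannot be told.

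Hr3, a nuclear receptor that represses early genes and activates ftz-f1, had 9 optimal summits over 33.4 kb at chr2R:10203995-10237348, minus strand, 6 in introns, 1 in a UTR exon and 2 in the flanks. There were 9, 11 and 11 in the tops of the replicates (10.3 ± 1.15, SD, n = 3). Of the 706 genes of 20 to 50 kb, 6.37% had as many or more, against a class median of 2. Its highest summit, in the peak chr2R:10210643-10210991, had a signal value of 806 and rank 351. Replicates 1 and 3 ranked it 336 and 340. Replicate 2 had a peak at rank 497 there that covered less than 50% of it. Next in height were a flank summit at the start site of CG34221 with a signal value of 481, which the replicates ranked 639, 824 and 1675, and an intron summit with 398, at ranks 1288, 1477 and 1353 (1373 ± 96.0).

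The annotation places CG12912 and CG46321 over the same stretch as Hr3. Each of the 6 intron summits also lies inside CG12912, and 5 of them inside both, so none of them can be given to Hr3 alone. Hr3 had no optimal summit within 500 bp of its 3 start sites. At the start site shared by the transcripts RA, RF and RH a lower candidate lay 55 bp upstream, below the optimal list. The summit nearest to a start site, 582 bp upstream of that of RD, also lies within 500 bp of the start site of Hdc, a histidine decarboxylase gene.

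ftz-f1, the nuclear receptor that makes tissues competent in the mid-prepupa, had 13 optimal summits over 50.7 kb at chr3L:18750607-18801309, minus strand. Introns held 12 of them, and 1 lay in the flank at start sites of Atg3 and Nufip. In the tops of the replicates there were 11, 9 and 11 (10.3 ± 1.15, SD, n = 3). Of the genes of 50 kb or more, 13.4% had as many or more. In contrast to Hr4, these summits were of modest and even height, with signal values from 104 to 395 in the introns. The highest, in the peak chr3L:18756597-18756828, had a signal value of 395 and ranks of 1561, 1397 and 1160 in the replicates (1373 ± 202). A second summit, with a signal value of 140, was called in the same interval, so the replicate ranks of this pair are the same peaks counted again.

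The long intron of 33674 bp that separates the first start site of ftz-f1 from the other 2 held 9 of the 12 intron summits. Their signal values ran from 104 to 222, and the strongest of them had replicate ranks of 3848, 2167 and 3622. Of the 9, a pair 202 bp apart shares its peaks in replicates 1 and 2, at ranks 6214 and 2634. No start site of ftz-f1 had an optimal summit within 500 bp, the nearest lying 2912 bp upstream of the start site of RC and RD. A lower candidate lay 135 bp upstream of that start site. The gene's best candidate below the optimal list, at pooled rank 8396 with a signal value of 87.4, missed the list narrowly.

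The other 3 receptors carried few summits. Hr38, the fly member of the NR4A family and a partner of usp, had 5 optimal summits over 31.1 kb, 2 in its first intron and 3 outside. Tops of the replicates held 4, 5 and 2 (3.67 ± 1.53, SD, n = 3). Of genes of 20 to 50 kb, 27.2% had as many or more. The highest, with a signal value of 355, lies within 500 bp of start sites of CG2617 and Cen, beyond the 3′ end of Hr38. In introns the stronger summit had a signal value of 175 and replicate ranks of 3540, 7510 and 4243, and the weaker one 120. Upstream, summits at 651 and 1694 bp from the start site had signal values of 95.7 and 116, with no other start site within 500 bp.

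Hr39, a receptor related to ftz-f1 that binds the same sites, had 3 optimal summits over 22.4 kb, 1 of them in an intron. That one lay 9621 bp from the start site. It had a signal value of 157 and replicate ranks of 4646, 3400 and 7426 (5157 ± 2061, SD, n = 3). A flank summit with a signal value of 158 lay at the start site of l(2)k14505, was absent from replicate 2, and had ranks of 4858 and 4872 in replicates 1 and 3. The other flank summit lay inside CG8671. At the start site of Hr39 there was a candidate 89 bp upstream, at pooled rank 10828 with a signal value of 66.2, which the replicates ranked 11934, 11462 and 19410. Of the gene's pooled candidates 15.8% reached the optimal list, against 47.1% for Hr4 and 8164 of 30000 over all pooled candidates.

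Hr78, a receptor needed for the larval response to ecdysone, is the shortest of the 10, with 3.48 kb at chr3L:21494019-21497494 on the minus strand. Its single summit lay 19 bp downstream of the start site of the transcript RE and within 500 bp of both others. The signal value was 125, and the replicates ranked it 5836, 6181 and 5587 (5868 ± 298, SD, n = 3). It was the only candidate of the gene in the pooled list.

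**Figure D3:**
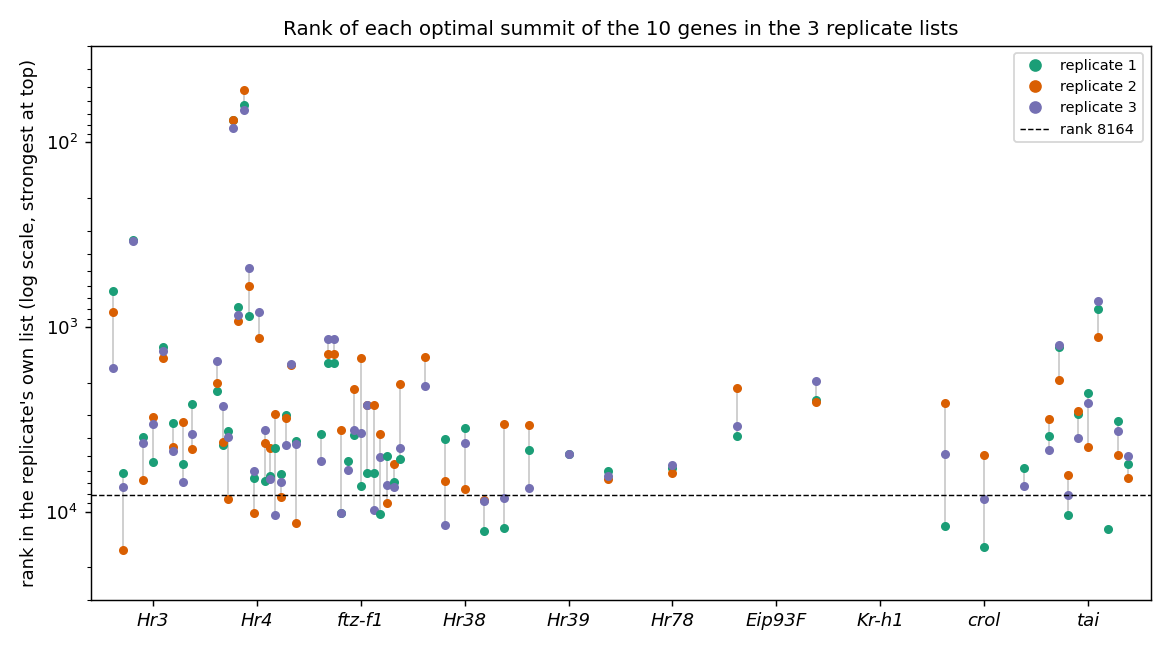
Rank of every optimal summit of the 10 genes in the candidate list of each replicate, on a log axis with the strongest at the top. Each column of points is 1 summit, in order of position, and a missing point means that no peak of that replicate covered at least 50% of it. The 2 strongest Hr4 summits stand at ranks 52 to 83 in all 3 replicates, and no other summit of the set is above rank 300 in any of them.

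Eip93F, a transcription factor gene of later metamorphosis, had fewer optimal summits than Hr4, which is of like length, and than the shorter ftz-f1. Over 65.4 kb at chr3R:21949114-22014539, plus strand, it had 2 optimal summits, against 16 at Hr4 with 66.0 kb. Of genes of 50 kb or more, 68.1% had as many or more and 39.4% as many or fewer. The replicates' tops held 4, 4 and 4. The intron summit, in the peak chr3R:21993021-21993195, had a signal value of 289 and ranks of 2496, 2556 and 1967 in the replicates (2340 ± 324, SD, n = 3). The other lay 59 bp upstream of the internal start site of the transcripts RA and RC, with a signal value of 222 and ranks of 3874, 2129 and 3435 (3146 ± 908). Among the 10 genes it was the highest summit within 500 bp of an own start site.

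Most candidates at Eip93F lay below the optimal list. The pooled list held 35 candidates there, near the 34 at Hr4 and the 34 at ftz-f1. Of the 35, 33 lay below the optimal list, which is the largest number among the 10 genes. The share that reached the optimal list was 5.71%, against 8164 of 30000 over all pooled candidates. The best of the 33 had a signal value of 89.5 and pooled rank 8196, just past the last optimal peak at 89.8. Another lay 83 bp upstream of the first start site, that of RB.

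Kr-h1, the zinc-finger repressor that juvenile hormone induces and that holds back metamorphosis, had no optimal summit over 13.9 kb at chr2L:6082603-6096498 or in its flanks. Of the 964 genes of 10 to 20 kb, 28.3% had none either. Replicate 2 alone had a summit in its top 8164, in the flank, so the replicates' tops held 0, 1 and 0. The pooled list held 6 candidates at the gene, 5 of them in the flanks. The highest, in a flank, had a signal value of 47.2 and rank 14606, with ranks of 20718, 16287 and 21348 in the replicates. The only intronic one, with 46.7, was ranked 13976 and 15907 by replicates 1 and 3 and was not covered in replicate 2. The nearest candidate to a start site lay 1691 bp upstream of it. With the depth of the libraries unknown, binding at Kr-h1 that is weaker than the optimal list reaches cannot be told from none.

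crol, a zinc-finger gene that ecdysone induces and that metamorphosis needs, had 3 weak optimal summits over 15.1 kb. Of these 1 lay at the promoter, 1 in a UTR exon and 1 in an intron. The replicates' tops held 1, 3 and 2 (2 ± 1, SD, n = 3), and 32.9% of genes of 10 to 20 kb had as many or more. The intron summit had a signal value of 143 and ranks of 11944, 2594 and 4868, with a coefficient of variation of 75.4%, the largest among the summits that all 3 replicates covered. The promoter summit, 62 bp upstream of the first start site with a signal value of 96.1, was ranked 5803 and 7232 by replicates 1 and 3, and no peak of replicate 2 overlapped it. Under the UTR summit the signal value was 91.2, the lowest of the 61.

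tai encodes a p160 coactivator of the ecdysone receptor, which also works with the juvenile hormone receptors. It is the longest of the 10, with 83.4 kb at chr2L:9166778-9250211 on the plus strand, and had 9 optimal summits, 8 in introns and 1 at the promoter. The replicates' tops held 7, 13 and 9 (9.67 ± 3.06, SD, n = 3), the widest spread of counts among the 10 genes. Of genes of 50 kb or more, 31.9% had as many or more. The highest summit, in the peak chr2L:9211221-9211565, had a signal value of 534 and ranks of 796, 1129 and 726 (884 ± 215), and lay in an intron of 42174 bp that held 6 of the 8. The next, 1714 bp downstream of the first start site, had a signal value of 385 and ranks of 1281, 1946 and 1257 (1495 ± 391). A weak summit 199 bp beyond the highest, with a signal value of 96.7, was covered by replicate 1 alone, at rank 12459. Its peak overlaps that of the highest.

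At the promoter of tai a summit 192 bp upstream of the first start site had a signal value of 188 and ranks of 3914, 3165 and 4630 (3903 ± 733, SD, n = 3). A start site of CG9586 lies within 500 bp as well, so it cannot be given to tai alone. The second start site, that of RC, RE and RF, had a lower candidate 193 bp upstream and no optimal summit nearer than 7866 bp.

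**Figure D4:**
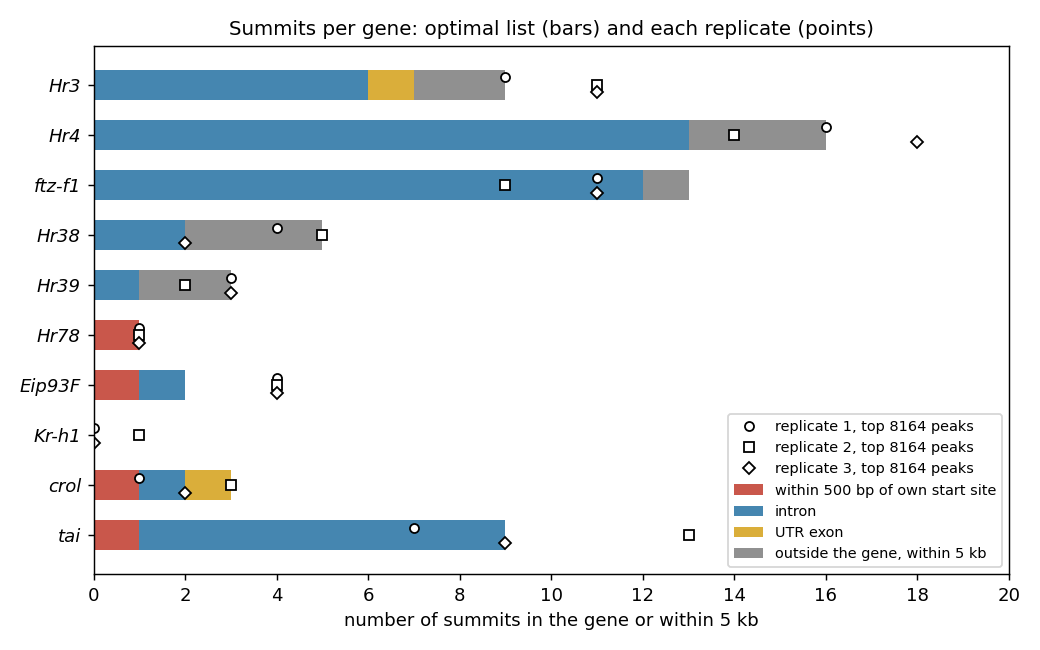
Number of optimal summits per gene by location (stacked bars), with the number in the 8164 highest peaks of each replicate as points. The replicates lie within 4 summits of each other at every gene except tai, where they had 7, 13 and 9, and the points at Eip93F stand at 4, against 2 optimal summits.

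Counted by start site, 6 of the 21 start sites of the 10 genes (28.6%) had an optimal summit within 500 bp, against 3158 of 19252 (16.4%) for all protein-coding genes, and 3 of the 6 are those of Hr78, which share 1 summit. At 6 more of the 21 the optimal list had none and a lower candidate lay that near. Another gene had a start site within 500 bp of 8 of the 11 flank summits. A start site of the gene itself was the nearest one for 45 of the 61 summits, and 8 of the 61 lay inside another protein-coding gene. The counts of lower candidates, flank summits, nearest start sites and summits inside other genes were not made over all genes. They have no background here and are descriptions only. Among intron summits 19 of 44 (43.2%) lay in a first intron, against 2650 of 4186 pairs of gene and intron summit (63.3%) over all genes. That background was not matched for gene length. The share differed between genes, with 6 of 6 at Hr3, 5 of 13 at Hr4, 3 of 12 at ftz-f1 and 2 of 8 at tai. The introns that held the 44 summits were long, with a median of 14429 bp and a range of 1856 to 42174 bp. Summits of 1 gene were mostly well apart, and 10 of 52 gaps between neighbours were 1 kb or less.

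A peak was counted as covered when 1 peak of the replicate spanned at least 50% of it. The whole lists of 30000 candidates of replicates 1, 2 and 3 covered 58, 55 and 60 of the 61 peaks. All 3 covered 52 (85.2%), against 7368 of all 8164 (90.2%). The tops of 8164 peaks covered fewer, 50, 48 and 53 of the 61. All 3 tops covered 36 of the 61, against 5041 of all 8164. With any overlap in the whole lists counted, all 3 replicates reached 58 of the 61 (95.1%), against 97.4% of all optimal peaks. Those that replicate 2 missed by any overlap were the ftz-f1 flank summit, the Hr39 summit at l(2)k14505 and the crol promoter summit. The optimal list was itself chosen for agreement between these libraries, so such coverage follows in part from that choice.

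The sequence under the summits was searched for 9 short words in windows reaching 100 bp to either side, on both strands, with overlapping words counted each on its own. The POU octamer ATGCAAAT occurred in 0 of the 61 windows, against 2.93% of all optimal windows, and ATGCAA, part of it, in 11 (18.0%), against 19.1%. The homeodomain core TAATTA was found in 10 (16.4%), against 17.3%, and lies under the highest summit of tai printed above. GAGAG, a word of the GAGA factor, occurred in 14 (23%), against 21.7%, and is repeated 6 times under the crol intron summit. The nuclear receptor half-site AGGTCA was in 1 window (1.64%), at Hr4, against 4.05%, and the longer CAAGGTCA bound by the ftz-f1 protein in 0, against 0.245%. TATCGATA, bound by DREF, was in 1 window (1.64%), at the crol promoter, against 1.45%, and CACGTG in 1 (1.64%), at ftz-f1, against 1.52%. CAGGTAG, bound by Zelda, was in 0, against 0.772%. GC content had a median of 35.3% in the members' windows, against 34.3% in all. Each word is thus about as frequent here as under other optimal summits or too rare for 61 windows to tell, and a match describes letters, not a bound site.

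Around the 10 regulators, other genes of the hormone response gave a wider setting. The lists were drawn up with earlier results of these data known and are given as counts only. Over all protein-coding genes the shares with a summit of any kind, at the promoter and in an intron were 48.2%, 17.6% and 10%, and for those of at least 10 kb 75.4%, 33.9% and 51.8%. All 9 early ecdysone genes had an optimal summit, 7 of 9 (77.8%) at the promoter and 7 of 9 (77.8%) in an intron, 76 summits in all with a median of 7 per gene. These were the highest counts of the 5 lists, whose other medians were 1 per gene, and 6 of these 9 genes span 39.9 kb or more. The highest were those of Eip78C, a nuclear receptor gene (1280, in an intron), E23, an ABC transporter gene (1168, 208 bp from its start site), and MsrA, the gene formerly called Eip71CD (1094, at the start site of CG7841). These 3 stand at ranks 109, 142 and 166, below both leading Hr4 summits.

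Among 11 other nuclear receptor genes 9 had a summit, 4 at the promoter and 2 in an intron, led by Hr96, a xenobiotic receptor (755, also at the start site of EMC6), with tll and kni without one. In the juvenile hormone pathway 5 of 8 had one, 2 at the promoter and 1 in an intron. The receptor gene Met had the highest (1000, in the flank), followed by its paralogue gce (409, at the start site of Top1), and Jheh1, Jheh2 and Jheh3, for epoxide hydrolases, shared 1 summit (237). Of 7 coregulator genes 4 had one, with Smr, a corepressor, highest (902, in an intron). Of 11 effectors of metamorphosis 7 had one, led by the cell death gene hid (955, 328 bp from a start site) and the autophagy kinase gene Atg1 (478, in an intron). Those without one were the cell death genes Dark and Drice and the pupal cuticle genes Edg84A and Edg91. Another pupal cuticle gene, Edg78E, had one (109, in the flank). The lists differ in gene length, and no test was made between them.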

How the data were processed

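Chromatin immunoprecipitation was done on 3 biological replicates of 1 group, and per the labels the chromatin was sonicated to 200 to 800 bp. The authors deposited narrowPeak lists on dm6 with a signal value and a −log10 of the q-value per peak. How the signal is scaled is not stated. It ranked peaks within 1 list only. Not given in the sources used here are the names of the aligner and the peak caller, and the reproducibility limit. The lists hold no depths, so no counting intervals are given. Reads, tracks, the control library and the lists on another build were not analysed here. Ensembl release 115 gave the genes, and RefSeq the dm6 sequence.

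A summit counted as promoter within 500 bp of a start site of the gene, otherwise by annotation (UTR exon, coding exon, intron), and as flank within 5 kb of the gene. A summit can count for several genes. Named genes are the 10 regulators, with their highest summit and the summit nearest to a start site, and up to 3 genes per other list with the highest summits. Some listed genes without a summit, and Edg78E, are named besides. The regulators and lists were chosen with earlier results of these data known, and no test was made. Of 46 other symbols 45 matched by symbol and 1 by synonym. Alternatives changed the flank, the promoter distance, the peak list, the coverage, the assignment of summits and the replicates used. The counting was checked on simulated data. Python 3.11.15, numpy 2.4.6, pandas 2.3.3 and matplotlib 3.10.9 were used.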

Additional observations from a re-analysis of the deposited data

How the results depend on the processing

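Of 86 values under alternatives 52 moved by less than the spread between replicates, or by at most 1.5 times for counts, and 34 moved by more. Coverage in all 3 replicates is a single value without such a spread. The SD of the coverage by each replicate alone, 4.13 percentage points, stood in for it. Numbers of summits follow the list used. In the higher-signal 50% of the optimal peaks there were 3.1 summits per gene (6.1 in the whole list), with totals of 23 in introns and 2 at promoters of 2 genes, and 0.639 per 10 kb. In the pooled candidate list there were 20.1 per gene, with totals of 143 in introns and 13 at promoters of 7 genes, 4.14 per 10 kb, 42.8% of them covered in all 3 replicates. Taking optimal peaks that the tops of all 3 replicate lists cover, there were 3.6 per gene, a total of 29 in introns, at 0.742 per 10 kb, a median rank in the top 39.8% rather than 49.5%, and 100% covered by construction. Over these 3 sets the density at the genes was 2.10, 1.85 and 1.97 times that of the arms. Summits in no other gene and nearest to the regulator numbered 4 per gene, none of them at Hr3, at 0.825 per 10 kb, with a median rank of 58.2% and 90% covered. A promoter of 1 kb gave 7 promoter summits, a flank of 1 kb 90.4% covered, and a flank of 10 kb 1.15 summits per 10 kb. Coverage in all 3 replicates was 54.1% at 80% overlap, 59.0% with replicate lists limited to the length of the optimal list, and 95.1% with any overlap, an alternative chosen after seeing the data. Leaving out 1 replicate in turn kept the optimal peaks that the tops of both others covered. This gave 3.9 to 4.7 summits per gene, 0.804 to 0.969 per 10 kb, and median ranks of 39.8% to 45.5%. Leaving out replicate 3 gave the lowest number of summits. Coverage was counted otherwise here. The whole lists of both other replicates covered 85.2% to 93.4% of all optimal peaks at the genes. No paired analysis was possible because the 3 samples form 1 group. Library depth is unknown, so weak or missing peaks, as at Kr-h1, carry no limit of detection. No peaks were called anew without a library, and the control library was not used here.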
